A study of Mus musculus with 15 samples.

Results

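Fc receptors for IgG are the surface proteins through which macrophages recognise antibody-coated particles. Their 6 genes, Fcgr1, Fcgr3, Fcgr4, Fcer1g, Fcgr2b and Fcgrt, were matched by symbol. The set was chosen with earlier results of these data known. All 6 were present in both count tables of the series, among 34245 genes in the table of 3 differentiation stages and 25965 genes in the table of IL4 stimulation, and all 6 passed the filter on low counts in each. The cells came from bone marrow of male C57BL/6 mice aged 8 to 10 weeks and were grown in CSF-1, the growth factor that macrophages need. Non-adherent precursors had 2 days at 0.6 ng/ml CSF-1. Immature macrophages had a further 4 days at 12 ng/ml. Mature macrophages had 1 day at 0.6, 2 days at 12 and 7 days at 120 ng/ml. IL4-stimulated and unstimulated mature macrophages were kept for 2 more days at 120 ng/ml, with or without 20 ng/ml IL4 for 48 hours. The last medium held 15% fetal calf serum for precursors and 10% for every other group. Serum and stage therefore cannot be told apart in comparisons with precursors. Each of the 5 groups had 3 libraries, from mice numbered 1 to 3. The cells are cultures and not tissue macrophages. The precursors are a mixed non-adherent fraction.

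Fcgr1 encodes the high-affinity activating receptor, and Fcgr3 and Fcgr4 encode activating receptors of lower affinity. These receptors signal through the common gamma chain, encoded by Fcer1g, whose ITAM motif recruits the kinase Syk. Fcgr2b encodes the inhibitory receptor, which carries an ITIM motif and recruits the lipid phosphatase SHIP1, the product of Inpp5d. Fcgrt encodes the heavy chain of FcRn, the neonatal Fc receptor, which pairs with beta-2 microglobulin, the product of B2m, and returns internalised IgG to the cell surface.

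In the coordinates of the deposited tables, which match GRCm38, 4 of the genes lie close together on chromosome 1. Fcgr2b spans 170958617 to 170976547, Fcgr4 spans 171018920 to 171029761, Fcgr3 spans 171051174 to 171064935 and Fcer1g spans 171229572 to 171234365. Fcgr1 lies on chromosome 3 from 96282909 to 96293969, and Fcgrt on chromosome 7 from 45092990 to 45103851. Fcgr4 is on the plus strand and the other 5 are on the minus strand. In the IL4 table, Fcgr2b starts at 170960558 and Fcgrt runs from 45092993 to 45103822. Of the 5790 exonic bases of Fcgr2b, 155 are also exons of an antisense gene, Gm38204, and reads there cannot be assigned without strand.

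The activating receptor gene Fcgr3 and the inhibitory receptor gene Fcgr2b are close relatives, and part of their coding sequence is nearly the same. The stretch of 150 aligned coding bases with the highest identity is shown because reads inside it bear on how counts were split between the genes. It runs from coding base 256 to 405 of Fcgr2b and from 241 to 390 of Fcgr3 in GENCODE M21 transcripts, and the capital marks the 1 base at which they differ.
Fcgr2b: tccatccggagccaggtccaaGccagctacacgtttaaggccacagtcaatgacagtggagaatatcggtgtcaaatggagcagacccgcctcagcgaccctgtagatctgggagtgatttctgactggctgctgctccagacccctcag
Fcgr3: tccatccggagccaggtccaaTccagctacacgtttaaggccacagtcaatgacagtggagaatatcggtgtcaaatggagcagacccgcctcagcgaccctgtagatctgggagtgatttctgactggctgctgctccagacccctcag
The coding sequences had 83.3% identity over 784 aligned bases, and the longest identical run was 129 bases. Of all 31-base words in Fcgr3 transcripts, 13.4% also occurred in Fcgr2b transcripts, and these made up 4.15% of the words of Fcgr2b. Fcgr1 and Fcer1g had no 31-base word in common with any other gene. Values of Fcgr3 and Fcgr2b are therefore less certain than those of Fcgr1 and Fcer1g, since the sources used here do not say how reads with several matches were handled.

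The promoter windows of 4 of the 5 genes that fell with IL4 are shown next. The window of Fcgrt, which also fell, was searched but is not shown. Each window runs from 250 bases before to 50 bases after the RefSeq start in GRCm38.p6, on the strand of the gene. Capitals mark matches to TTCNNNGAA, the palindrome bound by STAT factors, or to GAGGAA on either strand, a core of sites bound by PU.1, the macrophage factor encoded by Spi1.
Fcgr1, chr3:96293920-96294219: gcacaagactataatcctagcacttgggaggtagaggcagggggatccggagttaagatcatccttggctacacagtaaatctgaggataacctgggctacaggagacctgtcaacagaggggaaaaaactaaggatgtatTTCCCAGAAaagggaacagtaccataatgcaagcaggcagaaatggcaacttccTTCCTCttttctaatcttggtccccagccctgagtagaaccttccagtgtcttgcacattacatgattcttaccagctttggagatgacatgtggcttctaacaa
Fcgr4, chr1:171018676-171018975: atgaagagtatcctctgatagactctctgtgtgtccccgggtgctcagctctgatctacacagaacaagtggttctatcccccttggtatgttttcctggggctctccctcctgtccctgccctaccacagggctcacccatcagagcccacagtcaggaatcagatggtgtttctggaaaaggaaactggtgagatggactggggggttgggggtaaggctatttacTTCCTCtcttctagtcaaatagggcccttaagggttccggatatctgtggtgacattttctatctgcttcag
Fcer1g, chr1:171234300-171234599: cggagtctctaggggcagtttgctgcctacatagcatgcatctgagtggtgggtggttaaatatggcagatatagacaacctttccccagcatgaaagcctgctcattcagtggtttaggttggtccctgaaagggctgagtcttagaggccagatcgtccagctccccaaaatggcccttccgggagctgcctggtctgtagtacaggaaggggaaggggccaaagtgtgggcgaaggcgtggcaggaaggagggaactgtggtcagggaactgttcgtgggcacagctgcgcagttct
Fcgr2b, chr1:170976022-170976321: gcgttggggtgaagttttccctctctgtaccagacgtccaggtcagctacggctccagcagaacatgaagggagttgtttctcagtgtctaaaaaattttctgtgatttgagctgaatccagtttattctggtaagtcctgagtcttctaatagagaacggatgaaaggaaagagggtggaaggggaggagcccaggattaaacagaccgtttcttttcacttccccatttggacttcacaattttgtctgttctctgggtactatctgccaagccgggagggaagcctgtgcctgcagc
The Fcgr1 window held 1 match to TTCNNNGAA and 1 to GAGGAA, and the Fcgr4 window held 1 match to GAGGAA. The windows of Fcer1g, Fcgr2b and Fcgrt held neither motif. The 2 windows of Fcgr3 overlap, and the 1 match to GAGGAA in each is the same site. None of the windows of the 6 genes held the palindrome with 4 bases between TTC and GAA, the spacing favoured by STAT6. No marked matches overlapped each other. Among 32851 promoter windows of 300 bases, 8.30% held TTCNNNGAA, 6.95% held the form with 4 spacer bases and 28.3% held GAGGAA, searched on both strands. These matches are descriptions of letters only.

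Library totals ranged between 7897769 and 22167294 reads in the differentiation table and between 2408531 and 4214266 reads in the IL4 table. Csf1r, the CSF-1 receptor, averaged 900 ± 111 CPM in precursors, 2868 ± 1237 CPM in immature macrophages and 1877 ± 426 CPM in mature macrophages (SD, n = 3 each; CPM is the read count scaled to a common library size by edgeR). The macrophage marker Adgre1 was higher in immature macrophages than in precursors, with a log2 fold change of 2.98 ± 0.35 (SE; edgeR adjusted p = 7.96e-05). Precursors also carried granulocyte RNA: 12 neutrophil markers summed to between 11827 and 17702 CPM there, against 205 to 248 CPM in immature and 0.729 to 5.13 CPM in mature macrophages. Mpo, the myeloperoxidase of granulocytes and their precursors, had 747 ± 200 CPM in precursors. Macrophage markers, 6 in number, summed to between 6638 and 10743 CPM in immature macrophages, against 1110 to 1517 CPM in precursors. Monocyte markers (6 genes) summed to between 2889 and 3412 CPM in precursors, 309 to 419 CPM in immature and 0.971 to 3.52 CPM in mature macrophages. B cell markers (9 genes) summed to between 313 and 456 CPM in precursors and to at most 2.94 CPM in immature macrophages. In precursors, dendritic cell markers summed to 229 to 253 CPM, mast cell and basophil markers to 156 to 197 CPM, and eosinophil markers to 122 to 161 CPM. None of these last sums exceeded 9.49 CPM in immature or mature macrophages. The part of these other cells in the differences from precursors was not tested. In such bulk RNA, fewer cells of a type and less RNA per cell cannot be told apart.

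In immature macrophages against precursors, 5 of the 6 genes rose, the exception being Fcgr2b. The test was edgeR's quasi-likelihood test, with p-values adjusted over all 13359 tested genes by Benjamini-Hochberg and called under 0.05. Of those genes, 22.5% were called higher and 26.6% lower. The FcRn heavy chain Fcgrt showed the widest difference, followed by the activating receptors Fcgr4 and Fcgr3. Fcgrt had 367, 172 and 110 CPM in immature macrophages, against 13.7, 15.8 and 22.9 CPM in precursors. Every immature library was above every precursor library, and the log2 fold change was 3.63 ± 0.57 (SE; edgeR adjusted p = 0.000467). Without immature library 1, the highest, it was 3.02, or 8.12-fold in place of 12.4-fold. Fcgr4 had 149, 92.3 and 53.7 CPM in immature macrophages, against 26.1, 22.3 and 18.2 CPM in precursors. The groups did not overlap, and the log2 fold change was 2.15 ± 0.37 (SE; edgeR adjusted p = 0.000813).

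Fcgr3, the most abundant activating receptor transcript per kilobase in every group, had 1431, 938 and 535 CPM in immature macrophages, against 261, 281 and 327 CPM in precursors. Its log2 fold change was 1.74 ± 0.37 (SE; edgeR adjusted p = 0.0029), with no overlap. Fcgr1 had 256, 200.5 and 163 CPM in immature macrophages, against 101, 122 and 36.0 CPM in precursors. Its log2 fold change was 1.26 ± 0.42 (SE; edgeR adjusted p = 0.0285), and the adjusted p lay between 0.0530 and 0.0717 without precursors library 1 or 3 or without immature library 1 or 2. The low precursor library for Fcgr1, library 3, also had the lowest sum of 12 interferon response genes, 112 CPM, against 613 and 760 CPM in the other precursor libraries. The part of the interferon response genes in the Fcgr1 difference was not tested.

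Fcer1g had 377, 294 and 275 CPM in immature macrophages, against 157, 174 and 145 CPM in precursors, and all immature libraries were higher. The log2 fold change was 0.99 ± 0.29 (SE; edgeR adjusted p = 0.0157), and the adjusted p was 0.0537 without precursors library 3. The inhibitory Fcgr2b did not pass the test. It had 297, 112 and 61.9 CPM in immature macrophages, against 90.5, 87.4 and 88.1 CPM in precursors, so that the immature libraries fell on both sides of a narrow precursor range. The log2 fold change was 0.83 ± 0.44 (SE; edgeR adjusted p = 0.141). Without immature library 1 it was -0.021, and without immature library 3 it was 1.26 with an adjusted p of 0.0142. Immature library 1 had the highest level among the 3 immature libraries for all 6 genes.

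**Figure D1:**
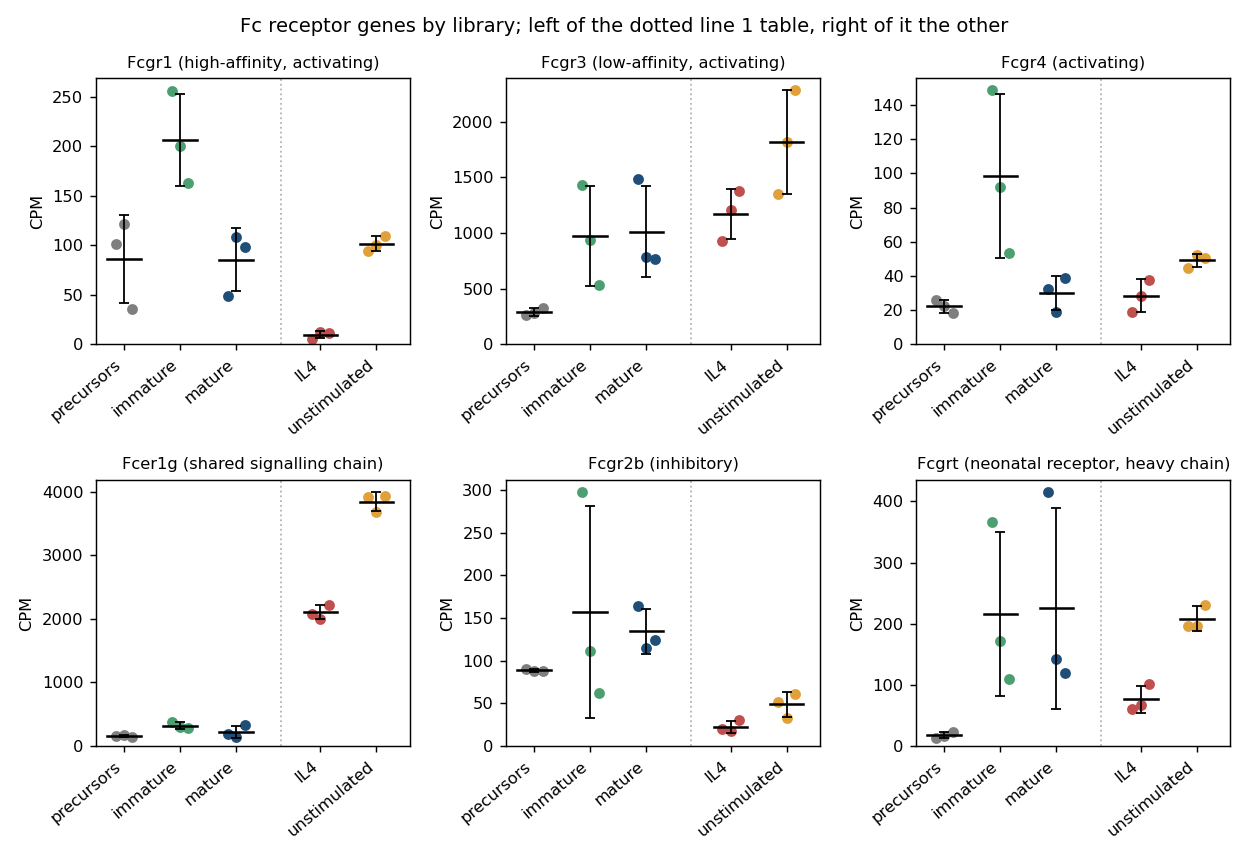
Levels of the 6 genes in each library, in CPM on linear axes that start at 0. Points are libraries, black lines are means and bars are SD (n = 3), and the dotted line parts the differentiation table from the IL4 table, which were scaled separately. Fcgrt and Fcgr3 are above all precursor libraries in immature and mature macrophages, and Fcgr1 lies between 5.36 and 11.9 CPM with IL4.

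Between mature and immature macrophages, 1 of the 6 genes changed. Fcgr4 fell, and 7.38% of all tested genes were called lower and 7.52% higher in this comparison. Fcgr4 had 32.1, 19.0 and 38.5 CPM in mature macrophages, against 149, 92.3 and 53.7 CPM in immature macrophages. The groups did not overlap and the log2 fold change was -1.72 ± 0.36 (SE; edgeR adjusted p = 0.0103). Fcgr1 had 49.1, 109 and 98.4 CPM in mature macrophages, all under the lowest immature library at 163 CPM. Its log2 fold change of -1.28 ± 0.42 (SE) missed the threshold in edgeR (adjusted p = 0.0653), passed in DESeq2 (adjusted p = 0.0151) and was listed with an adjusted p of 0.00702 in the authors' deposited table. It also passed with no filter on low counts (adjusted p = 0.0351) and with only the 6 libraries compared (adjusted p = 0.0405).

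The other 4 genes overlapped between mature and immature macrophages. The log2 fold change was 0.06 ± 0.36 for Fcgr3 (SE; edgeR adjusted p = 0.946). For Fcgrt it was 0.06 ± 0.51 (SE; edgeR adjusted p = 0.971). For Fcgr2b it was -0.23 ± 0.44 (SE; edgeR adjusted p = 0.779), and 0.63 without immature library 1. Fcer1g had 193, 135 and 329 CPM in mature macrophages, with a log2 fold change of -0.53 ± 0.29 (SE; edgeR adjusted p = 0.246). Without mature library 3 the Fcer1g value was -0.94 with an adjusted p of 0.0181.

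Set against precursors, mature macrophages were higher in 2 of the 6 genes, Fcgrt and Fcgr3, where 25.8% of all tested genes were called higher and 28.5% lower. Fcgrt had 415, 142 and 119 CPM in mature macrophages and a log2 fold change of 3.69 ± 0.57 (SE; edgeR adjusted p = 0.000334). Without mature library 1, the highest, it was 2.91, or 7.53-fold in place of 12.9-fold. Fcgr3 had 1488, 780.3 and 768 CPM in mature macrophages and a log2 fold change of 1.80 ± 0.37 (SE; edgeR adjusted p = 0.00193). Neither gene overlapped with precursors. Fcgr1 stood at 85.4 ± 31.8 CPM in mature macrophages and 86.3 ± 44.7 CPM in precursors (SD, n = 3 each), a log2 fold change of -0.02 ± 0.41 (SE; edgeR adjusted p = 0.972).

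Fcgr4 against precursors had a log2 fold change of 0.43 ± 0.36 (SE; edgeR adjusted p = 0.33) and Fcer1g one of 0.47 ± 0.29 (SE; edgeR adjusted p = 0.19). Without mature library 2, Fcer1g passed with an adjusted p of 0.0366. Fcgr2b had 164, 115 and 124 CPM in mature macrophages, all above the precursor libraries. Its log2 fold change of 0.60 ± 0.44 (SE; edgeR adjusted p = 0.267) did not pass, but with only the 6 libraries compared the adjusted p was 0.0245. The 3 stage comparisons share libraries and are not independent of each other.

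With IL4, 5 of the 6 genes fell against unstimulated mature macrophages, where 10.3% of 8936 tested genes were called lower and 10.5% higher. Fcgr1 differed most. It had 5.36, 11.9 and 11.5 CPM with IL4, from 20, 36 and 35 reads, against 94.3, 101 and 109 CPM in unstimulated macrophages, from 402, 244 and 444 reads. The log2 fold change was -3.42 ± 0.27 (SE; edgeR adjusted p = 1.31e-05), a level 10.7-fold lower with IL4. No left-out library moved the Fcgr1 value outside -3.60 to -3.11.

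Markers of macrophages and of other cells also differed with IL4. The sum of 5 macrophage markers lay between 4109 and 5024 CPM with IL4, against 5458 to 7924 CPM in unstimulated macrophages, but its members differed: Mertk, Mrc1 and Gas6 fell, Csf1r did not pass (edgeR adjusted p = 0.0706), and Cd68 had 3034 ± 504.1 CPM with IL4 and 3026 ± 682 CPM in unstimulated macrophages (SD, n = 3 each; edgeR adjusted p = 0.994). The 3 eosinophil markers analysed summed to between 18.4 and 40.7 CPM with IL4, against 0.986 to 4.95 CPM in unstimulated macrophages, with Prg2 and Epx at 0 reads in both groups. Ccr3, a chemokine receptor on that list, rose to 29.5 ± 11.1 CPM with IL4, against 3.15 ± 2.005 CPM in unstimulated macrophages (SD, n = 3 each; edgeR adjusted p = 0.000344). The 6 monocyte markers summed to between 13.9 and 119 CPM with IL4, against 8.24 to 101 CPM in unstimulated macrophages, with Ly6c2 and Plac8 at 0 reads in both groups. Fn1, the fibronectin gene on that list, had 60.9 ± 51.5 CPM with IL4 and 0.160 ± 0.139 CPM in unstimulated macrophages (SD, n = 3 each; edgeR adjusted p = 0.000435). The 12 neutrophil markers summed to between 5.62 and 19.9 CPM with IL4, against 10.3 to 26.4 CPM in unstimulated macrophages. NK and T cell markers reached at most 2.30 CPM and dendritic cell markers at most 1.65 CPM in any library of the table. All B cell, mast cell and basophil markers had 0 reads in both groups. The part of these marker differences in the receptor results was not tested.

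Fcgrt had 60.0, 67.2 and 101 CPM with IL4, against 196, 196 and 231 CPM in unstimulated macrophages. Its groups did not overlap, and the log2 fold change was -1.45 ± 0.21 (SE; edgeR adjusted p = 0.000679). Fcer1g, the shared signalling chain, had 2083, 2002 and 2226 CPM with IL4, against 3923, 3679 and 3935 CPM in unstimulated macrophages. The replicates of both groups lay close together, and the log2 fold change was -0.87 ± 0.16 (SE; edgeR adjusted p = 0.00296). The inhibitory Fcgr2b also fell, with 19.5, 17.5 and 30.6 CPM under IL4, against 51.6, 33.0 and 61.2 CPM in unstimulated macrophages. All IL4 libraries were below all unstimulated libraries, and the log2 fold change was -1.12 ± 0.28 (SE; edgeR adjusted p = 0.0153). Without unstimulated library 3 the adjusted p of Fcgr2b was 0.0599, and without IL4 library 2 it was 0.0703.

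Fcgr4 fell by less, with 18.7, 28.5 and 37.9 CPM under IL4, against 44.6, 52.3 and 50.3 CPM in unstimulated macrophages. The log2 fold change was -0.80 ± 0.25 (SE; edgeR adjusted p = 0.0427). Leaving out IL4 library 1 or 2 or any unstimulated library put the adjusted p of Fcgr4 between 0.0510 and 0.115. Fcgr3 had 924, 1208 and 1373 CPM with IL4, against 1348, 1814 and 2286 CPM in unstimulated macrophages, and the ranges overlapped. Its log2 fold change of -0.64 ± 0.23 (SE; edgeR adjusted p = 0.0747) did not pass. With the mouse number as a replicate block, Fcgr3 passed with a log2 fold change of -0.62 (edgeR adjusted p = 0.00325). It also passed in DESeq2 (adjusted p = 0.0333), in limma on the deposited log2 values (adjusted p = 0.0289) and without unstimulated library 1 (adjusted p = 0.0235).

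**Figure D2:**
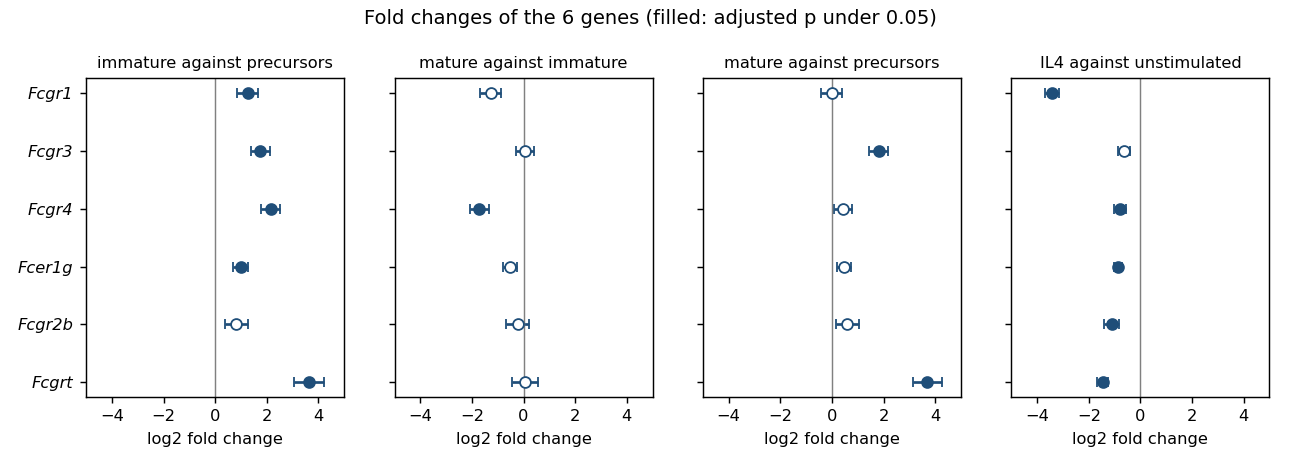
Fitted log2 fold changes of the 6 genes in the 4 comparisons, first-named group over second, with bars for SE (n = 3 libraries per group). Filled points passed an adjusted p under 0.05 in edgeR, open points did not. All 6 values are above 0 for immature macrophages against precursors, and all 6 are below 0 for IL4 against unstimulated macrophages.

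Divided by exon length, the order of the genes differed between groups. The place of Fcgr2b depends on its exon length, the longest of the 6. Before that division it had 134 ± 26.1 CPM in mature macrophages, above Fcgr1 at 85.4 ± 31.8 and Fcgr4 at 29.8 ± 9.96 (SD, n = 3 each). In immature macrophages Fcgr3 stood at 558 ± 258 CPM per kilobase, Fcer1g at 361 ± 61.7, Fcgrt at 103 ± 63.9, Fcgr1 at 79.7 ± 18.1, Fcgr4 at 78.3 ± 38.2 and Fcgr2b at 27.1 ± 21.4 (SD, n = 3). The ranges of Fcgrt, Fcgr1 and Fcgr4 overlapped there, as did those of Fcgr3 and Fcer1g and those of Fcgr4 and Fcgr2b. In mature macrophages the order was Fcgr3 at 583 ± 238, Fcer1g at 250 ± 114, Fcgrt at 107 ± 78.3, Fcgr1 at 33.0 ± 12.3, Fcgr4 at 23.8 ± 7.93 and Fcgr2b at 23.2 ± 4.51 CPM per kilobase (SD, n = 3). The last 3 overlapped, as did Fcer1g and Fcgrt. In precursors Fcer1g and Fcgr3 were close, at 181 ± 17.1 and 167 ± 19.6 CPM per kilobase, and Fcgrt was the lowest at 8.30 ± 2.29 (SD, n = 3). Between them lay Fcgr1 at 33.3 ± 17.3, Fcgr4 at 17.7 ± 3.15 and Fcgr2b at 15.3 ± 0.281 (SD, n = 3), whose ranges overlapped. With IL4, Fcgr1 was the lowest of the 6 at 3.71 ± 1.42 CPM per kilobase, against 39.2 ± 2.94 in unstimulated macrophages, where it stood beside Fcgr4 at 39.1 ± 3.20 (SD, n = 3 each). The IL4 range of Fcgr1 reached 4.602 and that of Fcgr2b began at 4.56 CPM per kilobase. Levels are not compared between the tables, which were counted on partly different gene models.

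The balance of activating to inhibitory receptors was expressed as the sum of Fcgr1, Fcgr3 and Fcgr4 over Fcgr2b, each in reads per kilobase of exon. Exon lengths joined the exons of all transcripts of a gene. For Fcgr2b this gave 5790 bases in the differentiation counts and 3849 bases in the IL4 counts. The size of each ratio and share depends on these lengths. The ratio was 20.3, 35.8 and 38.8 in immature macrophages, against 13.5, 15.0 and 14.3 in precursors. All immature libraries were higher, by 1.10 on the log2 scale. In mature macrophages the ratio was 31.9, 25.6 and 23.9, also above all precursors, by 0.92 on the log2 scale. Each of these differences had an exact two-sided permutation p = 0.1, the smallest p that 3 against 3 libraries allow, so no ratio could reach the threshold. Mature and immature macrophages overlapped, with a log2 difference of -0.18 (exact permutation p = 0.7) that lay between -0.47 and -0.0039 with 1 library left out. Adjusted over the 16 ratio comparisons made, the lowest exact p became 0.229. From raw reads with no length, the log2 difference of the ratio was 1.06 for immature and 0.87 for mature macrophages against precursors. It was -0.19 for mature against immature macrophages and 0.41 for IL4 against unstimulated macrophages.

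Fcgr3 supplied most of this sum. Of the 4 receptor transcripts per kilobase, Fcgr3 made up 71.6% in precursors, 74.7% in immature macrophages and 86.9% in mature macrophages on average. With Fcgr3 left out, the log2 difference of the ratio was -1.50 for mature against immature macrophages (exact permutation p = 0.1, the smallest possible). It was 1.14 for immature macrophages against precursors (exact permutation p = 0.2) and -0.36 for mature macrophages against precursors (exact permutation p = 0.5). The Fcgr4 to Fcgr2b ratio was 2.31, 3.81 and 4.00 in immature macrophages, against 1.33, 1.18 and 0.954 in precursors, with no overlap (exact permutation p = 0.1). It was 0.902, 0.762 and 1.43 in mature macrophages, all below the immature libraries.

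With IL4 the summed ratio was 108, 159 and 104, against 63.3, 131 and 88.0 in unstimulated macrophages. These ranges overlapped, and the log2 difference was 0.43 (exact permutation p = 0.4). Between libraries of the same mouse number the ratio was higher with IL4 in 3 of 3 pairs, with an exact sign-flip p = 0.25, the smallest that 3 pairs allow. With Fcgr3 left out the log2 difference was -0.53 (exact permutation p = 0.3). Fcgr1 alone over Fcgr2b was 0.407, 1.01 and 0.560 with IL4, against 2.72, 4.53 and 2.66 in unstimulated macrophages. The groups did not overlap and the log2 difference was -2.38 (exact permutation p = 0.1). Fcgr1 made up 0.513% of the 4 receptor transcripts with IL4 and 3.55% in unstimulated macrophages, while Fcgr3 made up 95.5% and 91.8%.

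**Figure D3:**
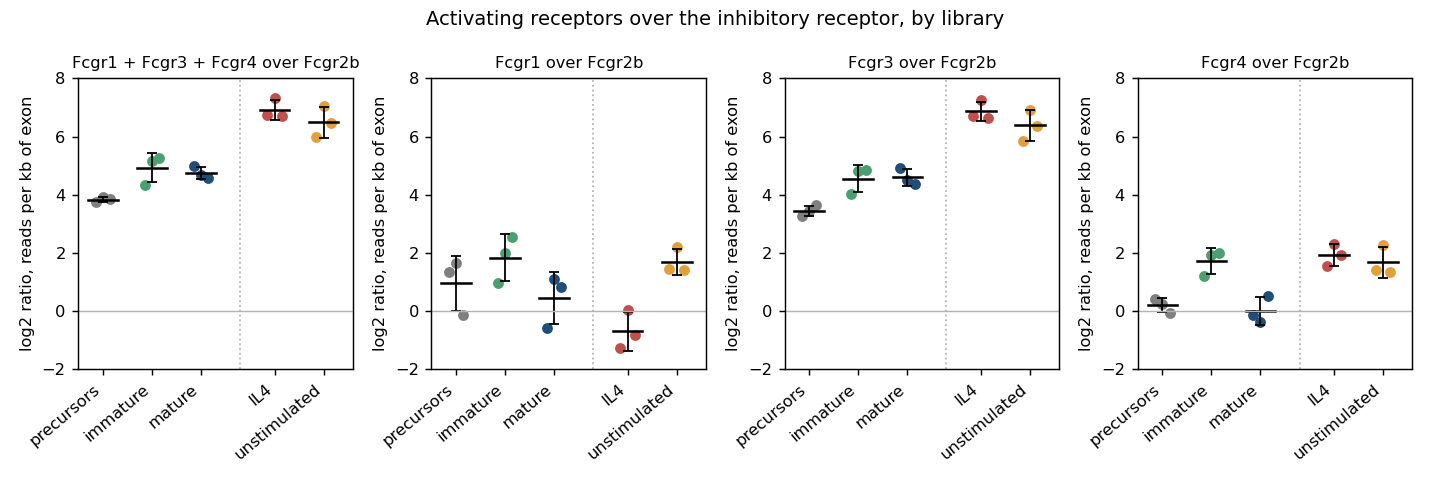
Log2 ratios of activating receptors to Fcgr2b in each library, from reads per kilobase of exon. Points are libraries, black lines are means and bars are SD (n = 3), with the 2 tables parted by the dotted line. The Fcgr1 ratio under IL4 lies below all unstimulated libraries, while the summed ratio overlaps between those groups.

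The genes whose levels followed each receptor most closely over the 9 differentiation libraries were taken by Pearson r of log2 CPM among 11764 genes, as a description of libraries that share stages and cell mixtures. For Fcgr1 these were Ddx58, the viral RNA sensor RIG-I, with r = 0.954, Opn3 with r = 0.951 and the interferon-induced chemokine Cxcl10 with r = 0.948. Fcgr3 was closest to Pik3r4 (r = 0.993), Fcgrt (r = 0.985) and Ephx1 (r = 0.985), so that an IgG recycling receptor and an activating receptor were among the nearest profiles. Fcgr4 was closest to Pld4 (r = 0.991), Slamf7 (r = 0.986) and St6galnac6 (r = 0.977). Fcer1g was closest to Atp6v0c, a subunit of the lysosomal proton pump (r = 0.988), Cln6 (r = 0.975) and Lpp (r = 0.973). Fcgrt was closest to Hexa, a lysosomal hexosaminidase subunit (r = 0.988), Gpalpp1 (r = 0.987) and Tmem140 (r = 0.987). Fcgr2b was closest to Mpc1 (r = 0.926), Akap7 (r = 0.912) and Rnf19b (r = 0.909). Between the receptors themselves r ranged from 0.238 for Fcgr1 and Fcgr2b to 0.985 for Fcgr3 and Fcgrt. It was 0.890 for Fcgr4 and Fcer1g and 0.261 for Fcgr1 and Fcgr3.

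The summed level of interferon response genes was lower in all mature than in all immature libraries, and lower in all IL4 than in all unstimulated libraries. The 12 genes summed to 204, 203 and 298 CPM in mature macrophages, against 1125, 744 and 531 CPM in immature macrophages. Of the 12, none rose and 4 fell in mature against immature macrophages, beside 7.52% and 7.38% of all genes. The median log2 fold change was -2.002 beside 0 over all genes. Mx1, an antiviral GTPase, fell by 3.12 on the log2 scale (edgeR adjusted p = 0.00101), Ifit2 fell by 2.26 (edgeR adjusted p = 0.0115) and Gbp2 fell by 2.16 (edgeR adjusted p = 0.0152). With IL4 the list summed to 49.5, 81.7 and 49.1 CPM, against 519, 331 and 230 CPM in unstimulated macrophages, where Ifit3 and Isg15 were listed at 0 reads in both groups. Of 8 genes tested, 5 fell and none rose, beside 10.3% and 10.5% of all genes. The median was -2.17 beside 0.01 over all genes. Ifit1, an interferon-induced RNA-binding protein, had 1.81 ± 0.432 CPM with IL4 and 34.0 ± 20.2 CPM in unstimulated macrophages (SD, n = 3 each; edgeR adjusted p = 0.000119). Irf7, an interferon regulatory factor, fell by 3.09 and Oasl2 fell by 2.64 on the log2 scale (edgeR adjusted p = 0.000187 and 0.000165). In immature macrophages against precursors, 1 of the 12 rose and none fell, beside 22.5% and 26.6% of all genes. The median was 0.44 beside -0.07, while Fcgr1 rose by 1.26. In mature macrophages against precursors, 3 fell and none rose, beside 28.5% and 25.8% of all genes. The median was -1.09 beside -0.05, while Fcgr1 had -0.02. Over unstimulated libraries 1 to 3 the list went from 519 to 331 to 230 CPM, while Fcgr1 went from 94.3 to 101 to 109 CPM. Whether the interferon response genes had a part in the Fcgr1 differences was not tested.

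**Figure D4:**
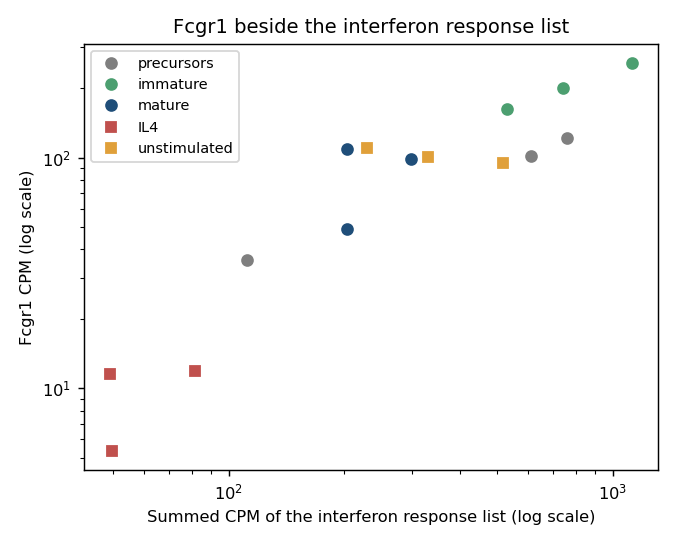
Fcgr1 level against the summed level of 12 interferon response genes in each of the 15 libraries, both in CPM on log axes. Circles are the differentiation table and squares the IL4 table, which were scaled separately. Libraries with IL4 lie at 5.36 to 11.9 CPM of Fcgr1 and 49.1 to 81.7 CPM of the list, and the low precursor library lies at 36.0 and 112 CPM.

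Genes that carry the signal of the activating receptors moved in both directions. Of 28 ITAM signalling genes, 3 rose and 10 fell in immature macrophages against precursors, beside 22.5% and 26.6% of all genes. The median log2 fold change was -0.25 beside -0.07 over all genes. Fgr, a Src-family kinase abundant in granulocytes, fell by 4.96 on the log2 scale (edgeR adjusted p = 3.94e-06), and Prkce, a protein kinase C, fell by 2.91 (edgeR adjusted p = 2.86e-05). Lat2, a membrane adaptor, rose by 1.995 (edgeR adjusted p = 3.84e-05). Syk had 473 ± 123 CPM in immature macrophages and 617 ± 75.8 CPM in precursors (SD, n = 3 each; edgeR adjusted p = 0.223). In mature against immature macrophages 3 of the 28 rose and 1 fell, beside 7.52% and 7.38% of all genes. Pik3cd, a catalytic subunit of PI3 kinase, fell by 1.11 (edgeR adjusted p = 0.00181), and Plcg2, a phospholipase, rose by 0.68 (edgeR adjusted p = 0.0275).

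With IL4, the ITAM signalling list split into 8 genes that rose, 7 that fell and 12 that failed the test. Of all tested genes, 10.5% were called higher and 10.3% lower. The median log2 fold change of the list was 0.09. Syk rose to 207 ± 11.4 CPM with IL4, against 134 ± 10.4 CPM in unstimulated macrophages (SD, n = 3 each; edgeR adjusted p = 0.0154). Malt1, a scaffold protease, rose by 2.47 (edgeR adjusted p = 2.12e-05) and Prkcd, another protein kinase C, rose by 1.45 (edgeR adjusted p = 0.00029). Lat, a membrane adaptor best known in T cells, had 77 reads with IL4 and 0 in unstimulated macrophages, at least 28.2-fold higher against a floor of 3 reads over the group. Tyrobp, the adaptor DAP12 and a relative of the gamma chain, had 2008 ± 302 CPM with IL4 and 1889 ± 188 CPM in unstimulated macrophages (SD, n = 3 each; edgeR adjusted p = 0.807).

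Among 12 genes of inhibitory signalling, 2 rose and 5 fell in immature macrophages against precursors, beside 22.5% and 26.6% of all genes. Inppl1, which encodes the phosphatase SHIP2, rose by 2.78 on the log2 scale (edgeR adjusted p = 9.6e-06), whereas Inpp5d had 372 ± 30.8 CPM in immature macrophages and 600 ± 15.0 CPM in precursors (SD, n = 3 each; edgeR adjusted p = 0.00623). Dok3, an inhibitory adaptor, fell by 1.55 (edgeR adjusted p = 2.74e-05) and Cbl, a ubiquitin ligase, fell by 1.92 (edgeR adjusted p = 0.000165). None of the 12 passed between mature and immature macrophages, where 14.9% of all tested genes were called. With IL4, 2 rose, 4 fell and 6 did not pass, where 10.5% of all genes were called higher and 10.3% lower. Inpp5d, Fcgr2b's effector phosphatase, fell by 1.08 (edgeR adjusted p = 0.00332), Dok3 fell by 1.60 (edgeR adjusted p = 0.00115) and Cblb, another ubiquitin ligase, rose by 2.71 (edgeR adjusted p = 3.03e-05).

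B2m, the partner chain of FcRn, passed the test in none of the 4 comparisons. It had 763 ± 417 CPM in immature macrophages and 614 ± 115 CPM in precursors (SD, n = 3 each; edgeR adjusted p = 0.604). With IL4 it had 1326 ± 210 CPM, against 1730.3 ± 184 CPM in unstimulated macrophages (SD, n = 3 each; edgeR adjusted p = 0.174). Of 6 genes of class I presentation and the FcRn partner, 3 rose and 1 fell in immature macrophages against precursors. Of all tested genes, 22.5% were called higher and 26.6% lower there. None of the 6 passed with IL4, where 10.5% of all genes were called higher and 10.3% lower. H2-D1, a class I heavy chain, rose by 1.02 in immature macrophages (edgeR adjusted p = 0.0163).

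Trim21, a cytosolic receptor for IgG, was higher in immature macrophages than in precursors and lower with IL4, the directions of the values of all 6 genes. It had 52.7 ± 4.18 CPM in immature macrophages and 23.9 ± 4.84 CPM in precursors (SD, n = 3 each; edgeR adjusted p = 0.000795). With IL4 it had 15.5 ± 1.03 CPM, against 35.7 ± 2.76 CPM in unstimulated macrophages (SD, n = 3 each; edgeR adjusted p = 0.00106). Of the 9 other Fc receptor genes tested across the stages, 2 rose and 6 fell in immature macrophages against precursors. Of all tested genes, 22.5% were called higher and 26.6% lower there. The median over all 9 was -5.13 with the 5 genes at 0 reads set at their bound. Fcmr, the receptor for IgM found on B cells, had 2250 reads in precursors and 0 in immature macrophages, at least 433-fold lower there. Of 3 such genes tested with IL4, Fcrls rose by 1.51 (edgeR adjusted p = 0.0414) while Trim21 and Fcrl1 fell, Fcrl1 by a log2 fold change of -2.65 (edgeR adjusted p = 0.000324).

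Genes that regulate the receptors were read as a last group. There were 15 such genes, which encode transcription factors, cytokine receptors and the complement receptor C5ar1. Of these, 3 rose and none fell in immature macrophages against precursors, beside 22.5% and 26.6% of all genes. Tgfbr2, a TGF-beta receptor subunit, rose by 1.36 (edgeR adjusted p = 0.000705), and Cebpa, a myeloid transcription factor, rose by 0.76 (edgeR adjusted p = 0.0178). Spi1 had 224 ± 34.4 CPM in immature macrophages and 219 ± 4.45 CPM in precursors (SD, n = 3 each; edgeR adjusted p = 0.91). With IL4, 2 of 13 rose and 5 fell, beside 10.5% and 10.3% of all genes. Il4ra, the IL4 receptor chain, had 108 ± 5.33 CPM with IL4 and 345 ± 43.4 CPM in unstimulated macrophages (SD, n = 3 each; edgeR adjusted p = 5.66e-05), and Tgfbr2 fell by 1.91 (edgeR adjusted p = 0.000275). Arg1, an enzyme long used as a sign of the IL4 response, rose by 8.38 on the log2 scale (edgeR adjusted p = 6.11e-06). Of 31 tested genes of the engulfment machinery, 5 rose and 5 fell in immature macrophages against precursors, beside 22.5% and 26.6% of all genes. In mature against immature macrophages 2 rose and 1 fell, beside 7.52% and 7.38% of all genes. Of the 32 on the list, 26 were tested with IL4 and 3 rose while 7 fell, beside 10.5% and 10.3% of all genes. There Marcksl1, an actin-binding protein, fell by 4.46 (edgeR adjusted p = 3.28e-05) and Dock2, a Rac activator, rose by 1.27 (edgeR adjusted p = 0.000748).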

How the data were processed

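RNA of 15 libraries was sequenced. Reads were aligned with HISAT2 2.0.5, per the submitters' processing notes, which also name edgeR, GRCm38.p6 and GRCm39.p6. The gene coordinates in the files match GRCm38. The sources used here name neither the counting program nor its strand setting. Raw counts for each gene, log2 RPM matched to a common distribution, and lists of adjusted p-values were deposited by the authors. The 3 group mean columns were not used.

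The counts of each table were fitted separately with edgeR 4.0.16 (R 4.3.3), by TMM scaling, a filter at a minimum count of 10 and the quasi-likelihood test. 13359 and 8936 genes were tested, with Benjamini-Hochberg adjustment over all of them. The differentiation table was fitted over all 9 libraries, and its 3 comparisons share them. In simulated counts for immature against precursors (13024 genes), the fit recovered 99.0% of genes changed 4-fold and 40.8% of genes changed 2-fold. For IL4 against unstimulated (8856 genes) it recovered 99.0% and 51.5%. The simulation gave every gene the same dispersion, the setting for spread between libraries, and changed a small part of the genes. In the real counts 49.2% of genes were called for immature against precursors. The recovered shares therefore hold for the simulated setting and not for each gene here. Rows with no gene identifier held 0.338% and 0.0148% of reads. Exon lengths came from GENCODE M21. DESeq2 1.42.0 and limma 3.58.1 were alternatives.

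The titles give mouse numbers 1 to 3 in every group. The headers of the IL4 table carry other numbers after the letter M, and the labels do not say what these mean. Whether equal mouse numbers mark the same animal is therefore uncertain. Deviations from group means correlated at -0.129 to 0.165 between same-number libraries of the differentiation table, against -0.128 to 0.139 between other libraries, so the data show no pairing there. In the IL4 table all 3 same-number pairs correlated, at 0.175 to 0.591, against -0.487 to 0.247. The main fit has no block. The p-values measure spread between these cultures.

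The members and gene lists were chosen with earlier results of these data known. Named genes are the 6 members, fixed control and marker genes, the 3 closest profiles per member, and per list and comparison up to 3 called genes of lowest p at 5 CPM or more. Spi1 and Adgre1 were not analysed here in the IL4 table. Results for some genes are not reported here.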

Additional observations from a re-analysis of the deposited data

How the results depend on the processing

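At an adjusted p under 0.001, the number of receptor genes called was 2 for immature against precursors, 0 for mature against immature, 1 for mature against precursors and 2 for IL4 against unstimulated, where 16.4%, 1.57%, 22.2% and 5.82% of all tested genes were called. For mature against immature, 2 genes were called with DESeq2, with no filter on low counts and with only the 6 libraries compared. Of all tested genes, 20.2%, 10.6% and 10.6% were called in these settings, against 14.9% in the main fit. Leaving out 1 library at a time gave between 3 and 6 called genes for immature against precursors, 1 to 2 for mature against immature and 3 to 5 for IL4 against unstimulated, beside 37.3% to 45.3%, 7.27% to 19.8% and 15.1% to 18.9% of all tested genes. The cause of these changes was not tested. The deposited log2 values gave small reversed log2 differences in limma for mature against immature (-0.070 for Fcgr3, 0.062 for Fcgr2b, -0.019 for Fcgrt) and for mature against precursors (0.046 for Fcgr1). With 1 library left out, genes that had not passed ranged across 0: Fcgr2b between -0.021 and 1.26 for immature against precursors, Fcgr1 between -0.39 and 0.31 for mature against precursors, and for mature against immature Fcgr2b between -0.65 and 0.63, Fcgr3 between -0.32 and 0.46, and Fcgrt between -0.73 and 0.68. Without Fcgr3 the activating over inhibitory ratio reversed, to -0.36 for mature against precursors and -0.53 for IL4 against unstimulated.

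With the mouse number as a replicate block, 6 receptor genes were called with IL4, Fcgr1 for mature against precursors was 0.10, and all calls with IL4 numbered 2883, against 1855 without the block. The block changed no other call of a receptor gene. For mature against immature, all calls fell to 1245 with only the 6 libraries compared, 1262 without immature library 1 and 1007 without immature library 2, against 1991. The IL4 libraries were shallower, and Fcgr1 rests on 20 to 36 reads there with IL4.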
